A study of Mus musculus with 10 samples.

Results

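Chromatin accessibility was compared between neuromesodermal progenitors that received the growth factor Gdf11 from day 6 to day 7 of differentiation and the progenitors of day 3. The comparison rests on 4 of the 10 libraries of the series, 2 of each group, and on every one of the 246799 merged regions that were counted. Of these regions, 173175 had enough counts to be tested. The question was at which loci the Gdf11 cells resembled day 3 progenitors and at which they kept the state of day 7.

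All groups were wild type and of the C57BL/6 embryonic stem cell line ES-Bruce4, a single line, grown on mouse embryo fibroblasts that were depleted before plating. Differentiation took place in N2B27 medium with 10 ng/ml bFgf from day 0. Day 3, day 6, day 7 and Gdf11 cells also received 5 µM CHIR99021, an inhibitor of the kinase GSK3 that activates Wnt signalling, from day 2. Cells were split on day 3. The day 3 group was untreated and harvested on day 3, and the day 7 group was untreated and harvested on day 7. The Gdf11 group was harvested on day 7 after 24 h with 50 ng/ml human Gdf11. The time in culture and the Gdf11 treatment therefore both separate the 2 groups, and the untreated day 7 libraries serve as the reference for the late state. Each ATAC-seq library, in which the transposase Tn5 cuts and tags open chromatin, was made from 50000 cells. Nothing in the labels ties the 2 libraries of each group to different cultures, and the p-values therefore cover the spread between libraries, which may be technical. In bulk libraries, fewer cells with an open region and less opening per cell cannot be told apart.

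Neuromesodermal progenitors are cells of the caudal epiblast and tail bud that give rise to both spinal cord and paraxial mesoderm. They are maintained by Wnt and Fgf signals and are known for the joint presence of the transcription factors T (Brachyury) and Sox2, together with the caudal-type factors Cdx1, Cdx2 and Cdx4. Gdf11 is a ligand of the TGF-beta family that acts through activin type receptors and Smad2 and Smad3, and in the embryo it promotes the passage from trunk to tail, when posterior Hox genes replace those of the trunk.

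The loci fell into several patterns, and 9 promoters whose accessible region was called in at least 1 of the contrasts are printed as examples of them. Each sequence is the 250 bases upstream of the start site on the gene's own strand, from RefSeq with build GRCm38.p6. Hoxa5 (chr6:52204588-52204837, minus strand) and Neurog2 (chr3:127632886-127633135, plus strand) opened by day 7 and were near the day 3 level in Gdf11 cells. Hes5 (chr4:154960673-154960922, plus strand) and Hoxa2 (chr6:52164832-52165081, minus strand) lay between day 3 and day 7. Hoxa10 (chr6:52240855-52241104, minus strand) stayed as open as on day 7, while Fgf4 (chr7:144861136-144861385, plus strand) and T (chr17:8434173-8434422, plus strand) stayed as closed as on day 7. Cdx2 (chr5:147307250-147307499, minus strand) was less open than on both days and moved past the day 7 level, and Hoxb1 (chr11:96365508-96365757, plus strand) was less open than on both days without a called change from day 3 to day 7. Capitals mark matches, on either strand, to 8 motifs that were searched, namely TTTATGG (Cdx and posterior Hox proteins), TGATTNAT (Pbx with Hox), AGGTCA (a retinoid receptor site), CAGCTG (an E-box of proneural factors), CTTTGAT (Lef and Tcf), ACAATGG (Sox), ATGCAAAT (POU factors) and GTCTAGAC (a Smad palindrome). CAGCTG and GTCTAGAC read the same on both strands, and no 2 matches overlapped in the printed windows.
Hoxa5: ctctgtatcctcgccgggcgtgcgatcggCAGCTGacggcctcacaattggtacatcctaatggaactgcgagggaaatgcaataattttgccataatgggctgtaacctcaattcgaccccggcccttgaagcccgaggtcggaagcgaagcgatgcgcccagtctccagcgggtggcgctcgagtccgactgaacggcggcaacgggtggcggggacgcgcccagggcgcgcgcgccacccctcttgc
Neurog2: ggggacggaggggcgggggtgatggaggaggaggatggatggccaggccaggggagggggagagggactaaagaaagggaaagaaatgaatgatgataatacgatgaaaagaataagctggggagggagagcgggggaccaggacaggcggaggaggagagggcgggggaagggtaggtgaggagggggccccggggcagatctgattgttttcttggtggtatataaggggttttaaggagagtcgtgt
Hes5: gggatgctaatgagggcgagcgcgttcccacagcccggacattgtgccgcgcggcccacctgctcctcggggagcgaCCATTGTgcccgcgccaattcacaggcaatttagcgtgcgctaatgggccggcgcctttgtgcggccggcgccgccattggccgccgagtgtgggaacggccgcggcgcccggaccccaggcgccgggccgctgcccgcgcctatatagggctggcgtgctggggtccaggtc
Hoxa2: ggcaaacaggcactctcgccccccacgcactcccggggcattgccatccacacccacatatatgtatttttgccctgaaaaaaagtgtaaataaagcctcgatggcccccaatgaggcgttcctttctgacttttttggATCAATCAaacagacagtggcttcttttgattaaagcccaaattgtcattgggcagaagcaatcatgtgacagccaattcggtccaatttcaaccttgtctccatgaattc
Hoxa10: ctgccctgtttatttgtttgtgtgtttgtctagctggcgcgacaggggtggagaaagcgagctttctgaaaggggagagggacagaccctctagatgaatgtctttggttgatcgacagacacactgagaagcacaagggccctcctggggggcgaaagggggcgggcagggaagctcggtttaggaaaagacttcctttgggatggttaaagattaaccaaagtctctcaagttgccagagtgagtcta
Fgf4: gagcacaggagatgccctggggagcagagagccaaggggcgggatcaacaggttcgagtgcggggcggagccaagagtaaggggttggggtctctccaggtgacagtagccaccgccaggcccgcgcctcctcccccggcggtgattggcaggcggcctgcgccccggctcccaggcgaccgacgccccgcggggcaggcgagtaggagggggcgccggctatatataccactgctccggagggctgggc
T: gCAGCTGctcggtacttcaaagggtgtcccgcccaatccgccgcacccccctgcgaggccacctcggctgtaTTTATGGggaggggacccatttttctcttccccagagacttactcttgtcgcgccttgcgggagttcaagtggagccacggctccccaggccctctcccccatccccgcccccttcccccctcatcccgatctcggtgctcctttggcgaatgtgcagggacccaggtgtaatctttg
Cdx2: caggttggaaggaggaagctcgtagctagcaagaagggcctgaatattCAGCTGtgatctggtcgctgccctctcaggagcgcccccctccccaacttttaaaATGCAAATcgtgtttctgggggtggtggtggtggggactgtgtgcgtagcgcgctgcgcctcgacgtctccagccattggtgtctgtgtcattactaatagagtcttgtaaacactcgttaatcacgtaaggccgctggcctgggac
Hoxb1: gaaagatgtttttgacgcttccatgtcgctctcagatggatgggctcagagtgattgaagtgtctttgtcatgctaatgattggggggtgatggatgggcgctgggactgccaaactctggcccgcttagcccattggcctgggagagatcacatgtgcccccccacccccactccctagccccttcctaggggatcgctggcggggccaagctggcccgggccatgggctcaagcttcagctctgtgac

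The windows of Neurog2, Hoxa10, Fgf4 and Hoxb1 held none of these letters, those of Hoxa5 and T held CAGCTG, T also held TTTATGG, Cdx2 held CAGCTG and ATGCAAAT, Hes5 held ACAATGG on its minus strand, and Hoxa2 held TGATTNAT. Of all 32851 promoter windows of this length, 13.0% held CAGCTG, 2.43% TTTATGG, 1.6% ATGCAAAT, 3.02% ACAATGG, 2.82% TGATTNAT, 14.0% AGGTCA, 3.21% CTTTGAT and 0.167% GTCTAGAC. A match is a description of the letters only.

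The accessible regions at these promoters, which need not cover the whole window, had the following levels in CPM, the read counts scaled to a common library size with edgeR's TMM factors. The Hoxa5 promoter had 16.5 and 16.7 CPM on day 3, 30.1 and 31.4 CPM on day 7 and 19.8 and 17.7 CPM in Gdf11 cells. The Neurog2 promoter had 17.2 and 18.2 CPM on day 3, 33.1 and 26.8 CPM on day 7 and 18.4 and 18 CPM in Gdf11 cells. At both, the Gdf11 libraries lay within or close to the day 3 values and below every day 7 library. The Hes5 promoter had 8.92 and 14.6 CPM on day 3, 33 and 28.7 CPM on day 7 and 16.3 and 19.7 CPM in Gdf11 cells. The Hoxa2 promoter had 6.12 and 4.33 CPM on day 3, 17.2 and 20.8 CPM on day 7 and 9.71 and 11.6 CPM in Gdf11 cells. At these 2 promoters the 3 groups did not overlap, with Gdf11 cells in the middle. On day 6, before Gdf11 was added, Hoxa5 had 17.3 and 21.8 CPM and Hoxa2 8.47 and 9.17 CPM. Neurog2 had 28.3 and 24.2 CPM and Hes5 22 and 25.7 CPM on day 6. Gdf11 cells thus overlapped day 6 at Hoxa5, lay above it at Hoxa2 and lay below it at Neurog2 and Hes5. The Hoxa10 promoter had 7.81 and 6.64 CPM on day 3, 13.4 and 15 CPM on day 7 and 12 and 14.9 CPM in Gdf11 cells. The Fgf4 promoter had 9.77 and 11 CPM on day 3, 2.61 and 3.24 CPM on day 7 and 2.53 and 3.34 CPM in Gdf11 cells. At the T promoter the values were 14.2 and 17.3 CPM on day 3, 4.77 and 3.98 CPM on day 7 and 3.88 and 4.95 CPM in Gdf11 cells. At these 3 the Gdf11 libraries overlapped the day 7 libraries and stood apart from day 3. The Cdx2 promoter had 39.5 and 44 CPM on day 3, 20.1 and 30.8 CPM on day 7 and 12 and 8.83 CPM in Gdf11 cells. The Hoxb1 promoter had 19.1 and 20.9 CPM on day 3, 17.6 and 25.3 CPM on day 7 and 8.95 and 9.47 CPM in Gdf11 cells. At Cdx2 and Hoxb1 both Gdf11 libraries were below all day 3 and day 7 libraries.

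The day 3 libraries held 11246030 and 7150334 counts in merged regions, the day 7 libraries 11576260 and 7501320, and the Gdf11 libraries 10927890 and 9285217. The authors' peak lists held 111096 and 89051 peaks on day 3 and 91192 and 108246 in Gdf11 cells. Regions with a peak in all 10 libraries took 63.1% and 66.47% of the counts on day 3 and 59.53% and 61.85% in Gdf11 cells. This share was lower in both Gdf11 libraries than in both day 3 libraries, and its part in the results was not tested.

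Accessibility at marker promoters was read first as a check of the labelled cells. The T promoter, a defining site of these progenitors, was open on day 3 and had no peak in 1 of the 2 Gdf11 libraries. The Sox2 promoter region had 27.2 and 30.9 CPM on day 3 and 22.2 and 28.2 CPM in Gdf11 cells, with a peak in all 4 libraries. At the promoter of Nkx1-2, a caudal epiblast factor, there were 11.5 and 15.2 CPM on day 3 and 5.91 and 8.61 CPM in Gdf11 cells. The Pou5f1 promoter, a site of pluripotent cells, had between 0.431 and 2.45 CPM and no peak in these 4 libraries. Of the pair that defines these progenitors, Sox2 thus had an open promoter in both groups, and the T promoter was at its day 7 level in Gdf11 cells.

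Markers of other cell types were read as summed counts of the regions near each gene, which measure accessibility and not expression. Of all genes tested, 8.95% were called higher and 14.9% lower in Gdf11 cells than on day 3, and the counts of markers are to be read against these shares. The summed level of 15 endoderm markers was 455 to 515 CPM on day 3 and 396 to 405 CPM in Gdf11 cells, with 2 markers higher and 4 lower. The summed level of 13 lateral plate, heart and blood markers was 442 to 478 CPM on day 3 and 370 to 393 CPM in Gdf11 cells, with 0 higher and 4 lower (2 lower without the first Gdf11 library). For 10 neural crest markers the sums were 675 to 705 CPM and 665 to 703 CPM, with 3 higher and 3 lower. For 14 fibroblast markers, which the feeder cells could carry, the sums were 372 to 385 CPM on day 3 and 435 to 465 CPM in Gdf11 cells, with 6 higher and 1 lower. Untreated day 7 also had 6 of these 14 higher and 1 lower than day 3, where 18.0% and 14.2% of all genes were. Against day 7, Gdf11 cells had 2 higher and 1 lower, where 2.05% and 11.2% of all genes were. None of these markers was at 0 in a day 3 or Gdf11 library, and the lowest was the fibroblast marker S100a4 at 1.15 CPM. No merged region was matched to a promoter of Col1a1, Sox17, Sox10 or Gata1, which mark fibroblasts, endoderm, neural crest and blood. Promoter sequences were available for 17492 genes, against 21900 in the gene table, so a missing match may also reflect a missing sequence. The part of other cell types in the results below was not tested.

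Across all regions, accessibility was higher in Gdf11 cells than on day 3 at 18097 regions (10.5% of those tested) and lower at 12735 (7.35%), by edgeR's quasi-likelihood test at a Benjamini-Hochberg adjusted p under 0.05, which is the threshold for every call here. A change of at least 2-fold was found at 16884 of the higher and 9672 of the lower regions. At the level of genes, for which the counts of all regions within 50 kb of a protein-coding gene were summed, 1705 of 19044 genes (8.95%) were higher and 2834 (14.9%) lower, and 320 and 483 of these changed at least 2-fold. The day 3 and Gdf11 libraries did not overlap at 23.5% of genes with the higher and 35.7% with the lower values in Gdf11 cells. The direction of the gene-level calls depends on the scaling. Higher genes made up 37.6% of the calls with TMM factors, 44.1% with DESeq2's size factors, 46.9% with library size alone, 49.9% with loess offsets and 56.6% with TMM factors from the regions with a peak in all libraries. At regions the share was 58.7%, and 57.2% to 66.2% with the other scalings. The median gene lay at -0.0684 on the log2 scale between Gdf11 cells and day 3 (between -0.0364 and 0.024 with the other scalings), at 0.0459 between day 7 and day 3, and at -0.0988 between Gdf11 cells and day 7, and small differences are to be read against these shifts. A region was counted with the nearest gene, so that 324 promoter regions inside another gene model were not in the sum of the gene they start. Of these, 7 genes are in the lists (T, Hoxb4, Rara, Wnt5b, Chrd, Gdf1 and Tgif2). With such regions counted with their own gene, 1709 genes were higher and 2847 lower. Hoxb4, Rara and Wnt5b kept their class, with log2 differences from day 3 of -0.6, -0.25 and -0.57, Tgif2 was called lower at -0.39, and T changed as given below.

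For comparison, day 7 differed from day 3 at 21531 regions that were higher (12.4%) and 17249 that were lower (9.96%), and Gdf11 cells differed from day 7 at 1883 higher (1.09%) and 4581 lower regions (2.65%). These contrasts share libraries with each other, so their values are given side by side and not as independent evidence. Counts of genes lower than on day 7 depended on single libraries, as the 2137 such genes were 438 without the second day 7 library, 660 without the first Gdf11 library and 1052 without the first day 7 library. Genes and regions were sorted into descriptive classes from the 3 contrasts. A feature was called day 3-like when day 7 differed from day 3, Gdf11 cells differed from day 7, and the difference between Gdf11 cells and day 3 was not called and had a 95% confidence interval inside 1 log2 unit (2-fold) in either direction. It was called late state kept when Gdf11 cells differed from day 3 in the direction of day 7 and their difference from day 7 was not called and had such an interval. An intermediate feature lay between the days and differed from both, one beyond day 7 moved past day 7 in the direction of the days, and one that differed from both did so without a called change between the days. Features that changed between the days and met no class rule stayed undecided. This includes features whose interval was too wide and features at which Gdf11 cells were called different from neither day. At genes the margin of 1 was wider than the usual difference between the days. Its median was 0.48 and -0.73 for day 3-like genes higher and lower on day 7, and 0.61 and -0.72 for late-kept genes. The interval of a gene can therefore hold the levels of both days, and gene classes rest mainly on the calls.

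By these rules, 1111 regions (0.642%) were day 3-like and 6827 (3.94%) kept the late state, 1647 (0.951%) were intermediate, 1340 (0.774%) differed from both and 247 (0.143%) lay beyond day 7. A further 43 (0.0248%) had moved from day 7 past the day 3 level. Of the regions that had changed between day 3 and day 7, 28905 (16.7% of all tested) were undecided, 71.3% of those higher on day 7 and 78.5% of those lower. Among genes, 1013 (5.32%) were day 3-like, 2373 (12.5%) kept the late state, 352 (1.85%) were intermediate, 481 (2.53%) differed from both, 53 (0.278%) lay beyond day 7, 20 (0.105%) lay past the day 3 level and 2309 (12.1%) were undecided. The narrow interval that a class needs was met mainly by regions with many counts, since 1031 of the day 3-like and 5603 of the late-kept regions were in the most abundant of 4 equal groups of regions. The 2 classes also face unlike cut-offs. Day 3-like needs a call between Gdf11 cells and day 7, and late state kept needs one between Gdf11 cells and day 3. Because p-values were adjusted within each contrast and the former has fewer calls, the same difference is less readily called there. The sizes of the 2 classes are therefore not to be compared directly.

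The day 3-like regions were mostly places that had opened by day 7. Of the 1111 regions, 967 were higher on day 7 than on day 3 and 144 were lower, whereas the late-kept regions were evenly split, with 3404 higher and 3423 lower on day 7. With each of the other 4 scalings, day 3-like regions that were higher on day 7 (539 to 958) outnumbered those that were lower (143 to 302). Leaving out 1 library in turn gave 305 to 832 and 19 to 81. The same split at genes did not hold across scalings. With TMM factors, 25.5% of the genes higher on day 7 and 5.26% of those lower on day 7 were day 3-like, but the shares were 21.9% and 5.73% with DESeq2's size factors, 9.54% and 10.0% with library size alone, 9.53% and 10.8% with loess offsets, and 7.76% and 12.4% with TMM factors from the regions with a peak in all libraries. For some named genes, the number of other scalings, of 4, that gave the same class is therefore stated below. A class given without this number is not to be read as stable. All 4 gave the same class to 287 of the 1013 day 3-like and 1642 of the 2373 late-kept genes. This held for 191 of the 352 intermediate genes and 114 of the 481 that differed from both days. Among the printed promoters, the regions at Hoxa10, Fgf4, T, Cdx2 and Hoxb1 had the same class in all 4 other scalings, that at Hes5 in 2 and those at Hoxa5, Neurog2 and Hoxa2 in 1.

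**Figure D1:**
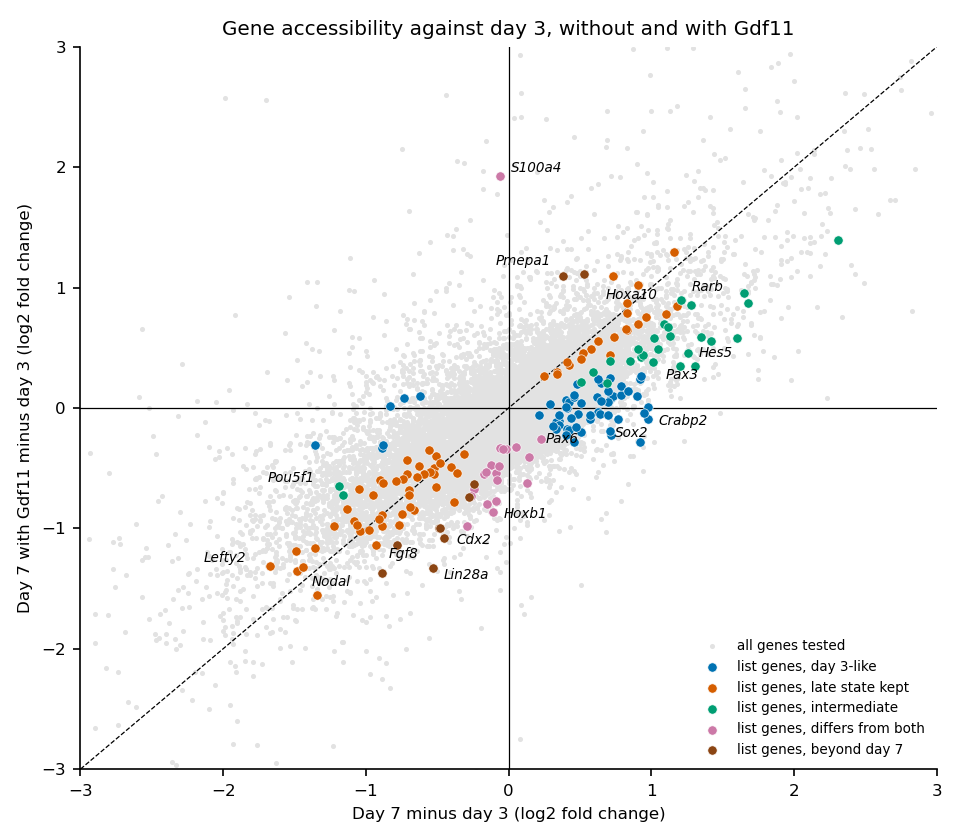
Each point is 1 gene, with the log2 difference between day 7 and day 3 on the horizontal axis and between Gdf11 cells and day 3 on the vertical axis; listed genes are coloured by class, the dashed line marks equal differences, and 48 genes lie outside the axes. The 1013 day 3-like genes lie near the horizontal line at 0 and the 2373 late-kept genes near the dashed line.

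Neural progenitor genes opened by day 7 and were for the most part near the day 3 level in Gdf11 cells. Of 20 transcription factor genes of the spinal cord and its progenitors, 14 were higher on day 7 than on day 3 and 2 lower (against 18.0% and 14.2% of all genes), and 16 were lower in Gdf11 cells than on day 7 (11.2% of all genes). Between Gdf11 cells and day 3, 4 were higher and 3 lower, and the median log2 difference was -0.03 (-0.03 to 0.06 with the other scalings, which changes its sign). With 1 library left out in turn, 12 to 16 were lower than on day 7, and against day 3 there were 2 to 4 higher and 1 to 3 lower. Of the 20 genes, 10 were day 3-like, 4 intermediate and 2 late-kept, and the other scalings gave 8 to 11 day 3-like genes.

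Sox2, the pan-neural and progenitor factor (chromosome 3, 34649995 to 34652461, plus strand), had 153 and 152 CPM on day 3, 207 and 266 CPM on day 7 and 144 and 156 CPM in Gdf11 cells. The Gdf11 and day 3 values overlapped, and both day 7 libraries were higher. The log2 difference between Gdf11 cells and day 3 was -0.03 ± 0.1 (SE, 95% CI -0.22 to 0.16, adjusted p = 0.861), and between Gdf11 cells and day 7 it was -0.66 ± 0.09 (adjusted p = 7.05e-06). Neurog2, a proneural factor that starts neuronal differentiation (chromosome 3, 127632733 to 127635636), had 96.8 and 107 CPM on day 3, 206 and 196 CPM on day 7 and 96 and 109 CPM in Gdf11 cells. Its Gdf11 and day 3 levels differed by 0.01 ± 0.09 (95% CI -0.18 to 0.2), while day 7 was 0.98 higher than day 3 on the log2 scale. Of its 14 tested regions, 5 were day 3-like, the promoter printed above among them. The promoter and 2 others of the 5 kept this class in 1 of the 4 other scalings. The region 3585 bp upstream of the gene had 13.7 and 14.4 CPM on day 3, 55.1 and 58.3 CPM on day 7 and 11.0 and 19.8 CPM in Gdf11 cells.

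Pax6, a factor of ventral and intermediate progenitors, had 127 and 128 CPM on day 3, 169 and 191 CPM on day 7 and 116 and 131 CPM in Gdf11 cells. Olig2, a motor neuron progenitor factor, had 65 and 66 CPM on day 3, 89 and 105 CPM on day 7 and 59.2 and 63.6 CPM in Gdf11 cells. In both genes each day 7 library lay above all Gdf11 and day 3 libraries. Irx3, Dbx1 and Dbx2, which pattern the neural tube, were also day 3-like, with log2 differences from day 3 of -0.05, -0.2 and 0.1. Sox2, Neurog2, Pax6, Olig2 and these 3 genes kept the class in all 4 other scalings, whereas Neurog1 did so in 2 and Zic1 in 1. A summed value can hide a different course at single sites. Of 18 tested regions of Pax6, 1 was higher and 6 lower in Gdf11 cells than on day 3. At Olig2, 2 of 9 regions were higher and 2 lower, and at Dbx2 5 of 18 were higher and 1 lower. At each of these genes 0 regions were day 3-like, so the class describes the sum only. The Olig2 promoter region was lower in both later groups, with 21.9 and 27.9 CPM on day 3, 10.8 and 15.6 CPM on day 7 and 13.9 and 13.8 CPM in Gdf11 cells.

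The dorsal factors Pax3 and Pax7 and the Notch target Hes5 stayed between the 2 days. Pax3 had 154 and 147 CPM on day 3, 290 and 317 CPM on day 7 and 186 and 207 CPM in Gdf11 cells. Pax3 was 0.38 ± 0.09 above day 3 (adjusted p = 0.000889) and -0.63 ± 0.08 from day 7 (adjusted p = 1.92e-06) on the log2 scale. Hes5 had 41.4 and 47.9 CPM on day 3, 104 and 109 CPM on day 7 and 56.3 and 65.9 CPM in Gdf11 cells. Zic4, a zinc finger factor of the dorsal neural tube, had 106 and 116 CPM on day 3, 331 and 365 CPM on day 7 and 187 and 246 CPM in Gdf11 cells, a log2 difference from day 3 of 0.96 ± 0.1 (adjusted p = 2.76e-09). In all 3 genes the groups did not overlap and Gdf11 cells were in the middle, and each kept the class in all 4 other scalings. Nkx2-2, a ventral factor, was lower in both later groups, at 79.6 and 81 CPM on day 3, 56.9 and 54.9 CPM on day 7 and 57.4 and 52.4 CPM in Gdf11 cells. The 14 genes of neuronal differentiation showed 2 higher and 2 lower in Gdf11 cells than on day 3, among them Dcx, a microtubule protein of young neurons, at 1.02 and Rbfox3, a splicing factor of mature neurons, at -0.89 on the log2 scale. Both kept the late state.

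**Figure D2:**
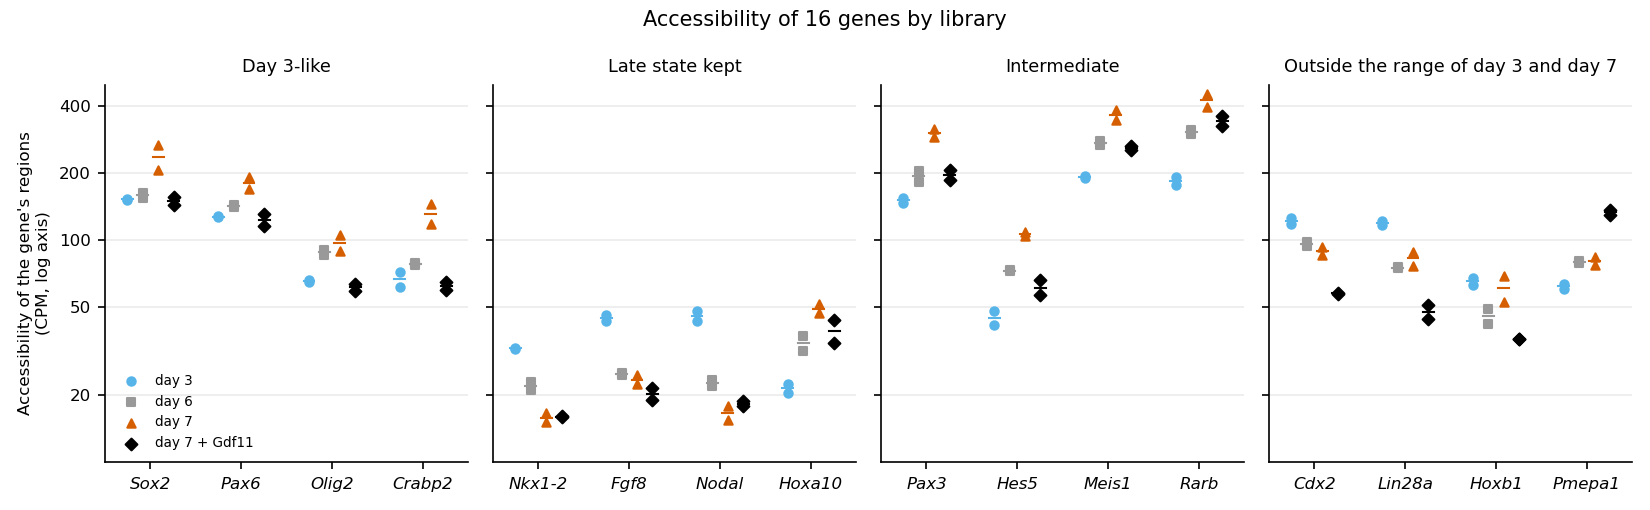
Summed accessibility near 16 genes in CPM on a log axis, with 1 point for each library of day 3, day 6, day 7 and Gdf11 cells and a line for each group's mean; panels group the genes by class. Sox2, Pax6, Olig2 and Crabp2 lie near the day 3 level in Gdf11 cells, while Nkx1-2, Fgf8, Nodal and Hoxa10 were not called different from day 7.

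Hox genes are ordered along their 4 clusters, and genes at the anterior end are used in the hindbrain and neck and those at the posterior end in the lumbar region and tail. Their counts in Gdf11 cells are given from the anterior to the posterior paralog groups. Of 12 genes of paralog groups 1 to 4, 9 were higher on day 7 than on day 3, and all 12 were lower in Gdf11 cells than on day 7 (9 to 12 with the other scalings). Against day 3, 2 were higher and 2 lower in Gdf11 cells, with a median log2 difference of -0.07 (-0.04 to 0.02 with the other scalings). Of the 12, 6 were day 3-like with TMM factors and 5 to 6 with the others. Without the second day 7 library, 7 were lower than on day 7 and 3 were day 3-like. Of 14 tested genes of groups 5 to 9, 9 were higher on day 7 and 11 lower in Gdf11 cells than on day 7, and 3 were higher and 2 lower than on day 3. Of these, 6 were day 3-like, against 3 to 5 with the other scalings. With 1 library left out, 0 to 2 of the 14 were higher than on day 3. Without the second day 7 library 3 were lower than on day 7 and 2 were day 3-like, and without the first Gdf11 library these counts were 4 and 3. Of 12 genes of groups 10 to 13, 3 were higher and 4 lower on day 7, 0 were lower and 1 higher in Gdf11 cells than on day 7 (2.05% of all genes were higher), and 2 were higher and 3 lower than on day 3, with 4 late-kept (3 to 4 with the other scalings) and 1 day 3-like gene.

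Hoxa3, an anterior gene, had 107 and 111 CPM on day 3, 160 and 195 CPM on day 7 and 109 and 116 CPM in Gdf11 cells. Hoxc4 had 121 and 139 CPM on day 3, 203 and 239 CPM on day 7 and 114 and 130 CPM in Gdf11 cells. The Gdf11 and day 3 values overlapped at both genes, and the log2 differences from day 3 were 0.05 ± 0.1 (95% CI -0.15 to 0.25) and -0.09 ± 0.1 (95% CI -0.29 to 0.11). Hoxb3, Hoxa4, Hoxa5, Hoxc6 and Hoxa9 were likewise day 3-like in every one of the 4 other scalings, with log2 differences from day 3 between -0.06 (Hoxb3) and 0.18 (Hoxa4). Hoxd3 (chromosome 2, 74711993 to 74748271) had 103 and 110 CPM on day 3, 261 and 283 CPM on day 7 and 142 and 178 CPM in Gdf11 cells. Its value in Gdf11 cells was intermediate, with a log2 difference of 0.59 ± 0.09 from day 3 (adjusted p = 1.26e-05) and -0.77 ± 0.09 from day 7 (adjusted p = 3.01e-07). Its 19 tested regions were of several classes, with 4 day 3-like, 3 late-kept and 3 intermediate.

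Hoxb1 and Hoxb4 were lower in Gdf11 cells than on both days. Hoxb1 had 62.8 and 67.4 CPM on day 3, 52.5 and 69.1 CPM on day 7 and 35.8 and 36 CPM in Gdf11 cells. Hoxb4 had 63.8 and 68.8 CPM on day 3, 59.7 and 86.2 CPM on day 7 and 40.7 and 45.9 CPM in Gdf11 cells. Neither gene's Gdf11 libraries overlapped either day, and the log2 differences from day 3 were -0.86 ± 0.13 (adjusted p = 5.33e-06) and -0.62 ± 0.13 (adjusted p = 0.000658). Hoxb7 and Hoxb8, trunk genes of the same cluster, were also lower than on day 3, with log2 differences of -0.98 ± 0.17 and -1 ± 0.17. They differed from day 7 as well, at adjusted p = 0.00773 and 0.0443.

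Posterior genes went both ways. Hoxa10, a gene of the lumbar region (chromosome 6, 52231197 to 52240854), had 22.5 and 20.6 CPM on day 3, 46.8 and 51.4 CPM on day 7 and 34.5 and 43.7 CPM in Gdf11 cells. Hoxc10 had 16 and 12.8 CPM on day 3, 24.5 and 27.5 CPM on day 7 and 24.6 and 26 CPM in Gdf11 cells. Both stayed above every day 3 library, with log2 differences from day 3 of 0.85 ± 0.15 (adjusted p = 6.57e-05) and 0.79 ± 0.17 (adjusted p = 0.000412). Hoxd8, of the trunk, was also late-kept at 0.87. Hoxb13 and Hoxc13, which belong to the most posterior group, were below day 3, with log2 differences of -0.82 ± 0.16 (adjusted p = 0.000277) and -0.72 ± 0.12 (adjusted p = 2.22e-05), and their values in Gdf11 cells were not called different from day 7. Hoxc11 took the opposite course, with 18.4 and 19.9 CPM on day 3, 11.7 and 13.4 CPM on day 7 and 19.4 and 21.6 CPM in Gdf11 cells. Hoxc11 was lower on day 7 than in either of the other groups, and the day 3 and Gdf11 libraries overlapped.

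Region by region, the HoxA cluster (chromosome 6, 52155367 to 52260880) had 13 higher and 3 lower regions of 49 tested between Gdf11 cells and day 3. The HoxD cluster (chromosome 2, 74668225 to 74765142) had 10 higher and 3 lower of 49, and the HoxC cluster (chromosome 15, 102921131 to 103036856) 6 higher and 7 lower of 62. In the HoxB cluster without Hoxb13 (chromosome 11, 96271330 to 96368254), 5 regions were higher and 13 lower of 54. Between day 7 and day 3 the higher and lower counts were 25 and 2 in HoxA, 20 and 3 in HoxD, 15 and 7 in HoxC and 18 and 7 in HoxB. Against the share of all regions called higher (10.5%), HoxA and HoxD had more higher regions, and HoxB had more lower regions than the 7.35% of all regions. These are counts without a test of the clusters. Of all cluster regions, 4 in HoxA, 4 in HoxD, 2 in HoxC and 3 in HoxB were day 3-like, and 4, 5, 3 and 4 kept the late state.

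Both classes occurred side by side within the clusters. Within the Hoxb3 gene, the region at chromosome 11, 96306823 to 96307198 had 10.6 and 8.66 CPM on day 3, 20.3 and 26.1 CPM on day 7 and 8.19 and 10.4 CPM in Gdf11 cells and was day 3-like. The region at chromosome 11, 96344211 to 96344436 within the same gene had 1.78 and 3.46 CPM on day 3, 5.76 and 6.04 CPM on day 7 and 4.73 and 5.7 CPM in Gdf11 cells and kept the late state. The first of these did not differ from day 3 by more than the libraries' spread, while both Gdf11 libraries at the second were above day 3. In HoxD, the region inside Hoxd3 at chromosome 2, 74740536 to 74741153 had 9.51 and 5.77 CPM on day 3, 34.3 and 31.7 CPM on day 7 and 20.9 and 23.1 CPM in Gdf11 cells, a log2 difference from day 3 of 1.48 ± 0.23 (adjusted p = 1.23e-06).

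**Figure D3:**
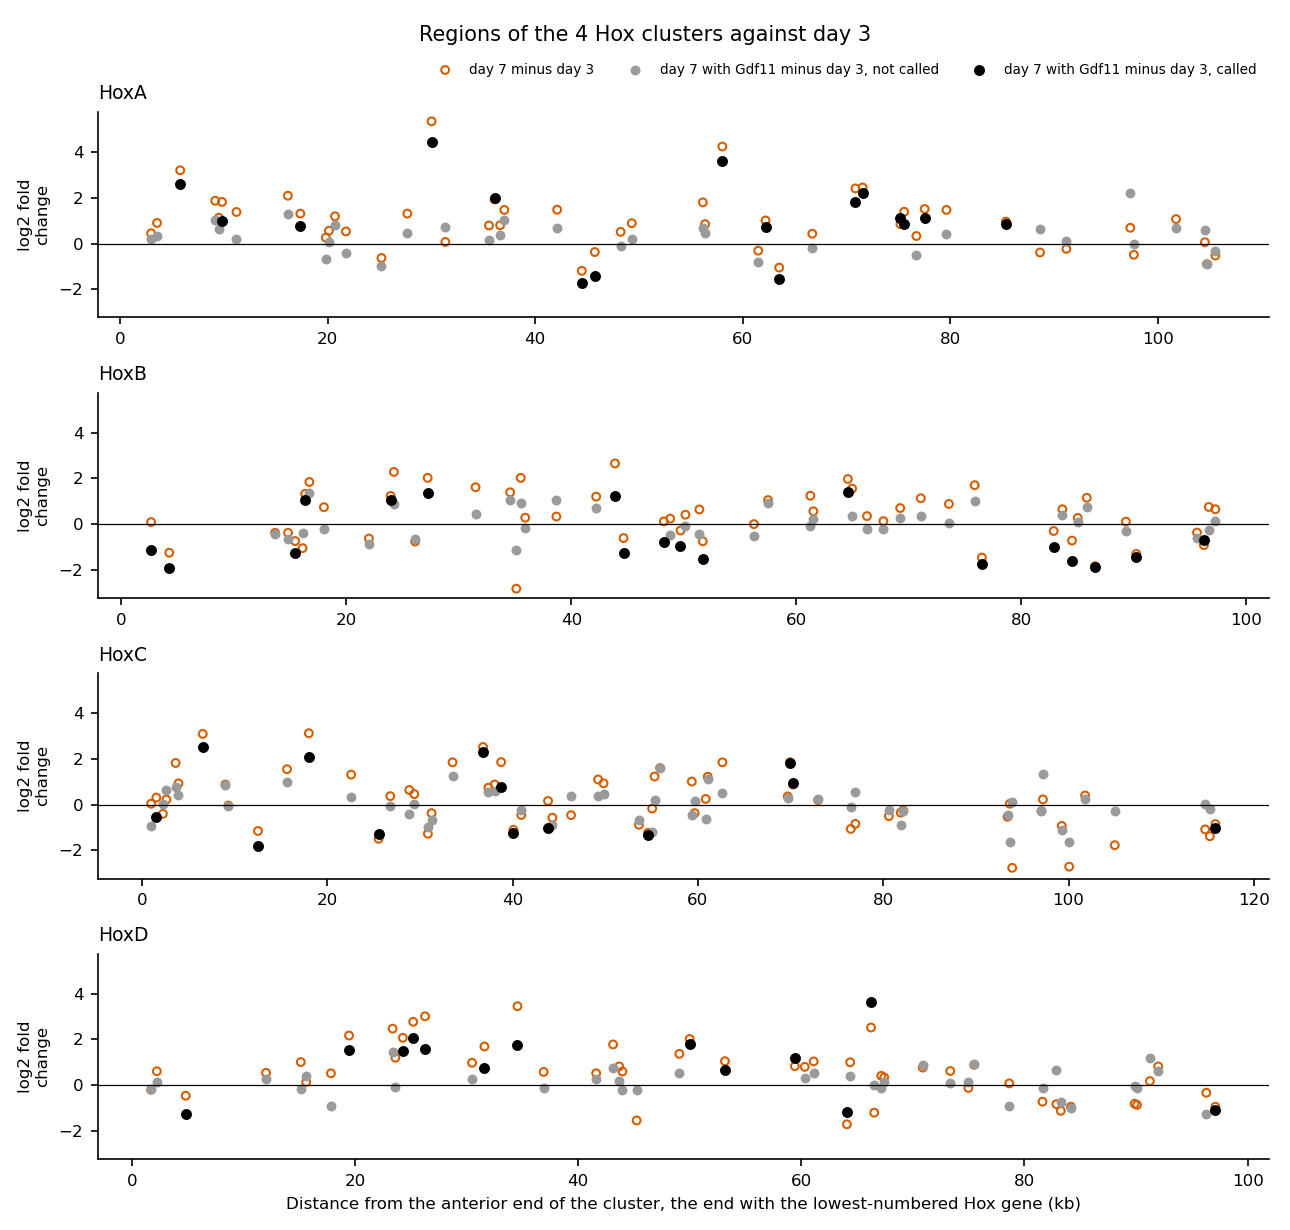
Log2 accessibility differences of the tested regions in the 4 Hox clusters against the distance from the anterior end of the cluster, with open circles for day 7 minus day 3 and filled circles for Gdf11 cells minus day 3 (black where called, grey where not). In HoxA 13 regions are called higher and 3 lower in Gdf11 cells than on day 3, and in HoxB 5 and 13.

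Partner proteins of Hox factors belong to the Meis, Pbx and Pknox families. Of 9 genes, 6 were higher on day 7 than on day 3, 7 were lower in Gdf11 cells than on day 7 (4 to 6 with the other scalings, and 4 without the second day 7 library), and 2 were higher and 0 lower in Gdf11 cells than on day 3. Meis1 had 193 and 189 CPM on day 3, 346 and 385 CPM on day 7 and 255 and 264 CPM in Gdf11 cells and was intermediate, with a log2 difference from day 3 of 0.44 ± 0.08 (adjusted p = 5.81e-05). Meis3 had 51 and 57.7 CPM on day 3, 94.7 and 115 CPM on day 7 and 47.3 and 58.4 CPM in Gdf11 cells, and Pknox2 had 276 and 282 CPM, 417 and 442 CPM and 283 and 310 CPM in the same order. These last 2 genes were day 3-like in all 4 other scalings. The promoter region of Meis3 alone was below day 3 in Gdf11 cells, at -0.79 on the log2 scale.

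Retinoic acid drives neural differentiation of these progenitors and is opposed by Fgf signalling and by Cyp26 enzymes. Of 17 genes of its synthesis, binding, degradation and reception, 9 were higher and 1 lower on day 7 than on day 3, 10 were lower in Gdf11 cells than on day 7 (5 to 9 with the other scalings, 1 without the second day 7 library and 6 without 1 or the other Gdf11 library), and 5 were higher and 2 lower than on day 3. Crabp2, which carries retinoic acid to its receptors, had 61.2 and 71.9 CPM on day 3, 118 and 145 CPM on day 7 and 59.7 and 64.6 CPM in Gdf11 cells. Its Gdf11 and day 3 values overlapped, and Gdf11 cells lay at -1.08 ± 0.11 from day 7 (adjusted p = 2.47e-08). Aldh1a2, the main synthesising enzyme of the embryo, had 40.6 and 36.1 CPM on day 3, 66.7 and 81.2 CPM on day 7 and 51.7 and 51.1 CPM in Gdf11 cells and was intermediate. Rdh10, which makes the precursor retinal, had 39.7 and 45.5 CPM on day 3, 74 and 75.7 CPM on day 7 and 66.1 and 67.4 CPM in Gdf11 cells and kept the late state, with a log2 difference of 0.66 ± 0.11 from day 3 (adjusted p = 3.82e-05).

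The receptors did not move as one. Rarb had 192 and 176 CPM on day 3, 398 and 452 CPM on day 7 and 327 and 361 CPM in Gdf11 cells and stayed 0.9 ± 0.08 above day 3 (adjusted p = 1.43e-10). Rara was day 3-like, with 81.2 and 90.5 CPM on day 3, 101 and 130 CPM on day 7 and 74 and 77 CPM in Gdf11 cells. Rarg, the receptor of the caudal embryo, had 94.1 and 117 CPM on day 3, 59.8 and 62.3 CPM on day 7 and 47 and 48.5 CPM in Gdf11 cells, a log2 difference of -1.14 ± 0.11 from day 3 (adjusted p = 1.32e-09). Cyp26a1, the degrading enzyme of the tail bud, had 32.8 and 34.8 CPM on day 3, 30.5 and 33 CPM on day 7 and 21.9 and 17.5 CPM in Gdf11 cells. Both Gdf11 libraries of Cyp26a1 were below both days, with log2 differences of -0.77 ± 0.15 from day 3 (adjusted p = 0.000228) and -0.68 ± 0.15 from day 7 (adjusted p = 0.00275).

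In the contrast of Gdf11 cells with day 3, genes of the caudal epiblast showed the largest share of calls among the lists, and most were below day 3. Of 18 genes, 13 were lower and 3 higher in Gdf11 cells than on day 3, with a median log2 difference of -0.7, and the counts were the same with all 4 other scalings. Leaving out 1 of the 4 libraries in turn gave 13 lower genes each time and 0 (without the second Gdf11 library) to 3 higher ones. The 3 higher genes include T, which is not called when its promoter region is counted with it. On day 7, 12 were lower and 4 higher than on day 3, and 9 were lower in Gdf11 cells than on day 7 (4 without the second day 7 library). Of the 18 genes, 8 kept the late state, 5 lay beyond day 7, 2 were intermediate and 1 was day 3-like. The summed level of the list was 1180 to 1230 CPM on day 3 and 776 to 820 CPM in Gdf11 cells.

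Cdx2, a regulator of posterior growth and Hox genes (chromosome 5, 147300900 to 147307249), had 118 and 126 CPM on day 3, 85.7 and 93.4 CPM on day 7 and 57.3 and 57.8 CPM in Gdf11 cells. The 3 groups did not overlap, and Gdf11 cells were the lowest. The log2 difference from day 3 was -1.08 ± 0.1 (adjusted p = 2.4e-10) and from day 7 -0.63 ± 0.1 (adjusted p = 3.56e-05). Beside the promoter, a region at chromosome 5, 147309224 to 147309569, 1975 bp upstream of the gene, had 10.0 and 9.81 CPM on day 3, 4.86 and 4.57 CPM on day 7 and 1.35 and 1.94 CPM in Gdf11 cells. Cdx1 had 39.6 and 43 CPM on day 3, 22.9 and 21.5 CPM on day 7 and 17.6 and 14.2 CPM in Gdf11 cells. Cdx4 had 44.4 and 41.9 CPM on day 3, 31 and 30.5 CPM on day 7 and 22.9 and 20.1 CPM in Gdf11 cells. Both Cdx genes followed the order of Cdx2, but their difference from day 7 was smaller, and the class held in 1 of the 4 other scalings, against all 4 for Cdx2.

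Nkx1-2 had 32.8 and 32.3 CPM on day 3, 15.2 and 16.6 CPM on day 7 and 16.1 and 16 CPM in Gdf11 cells. Wnt8a, a ligand of the caudal epiblast, had 75.3 and 71.4 CPM on day 3, 29.9 and 28 CPM on day 7 and 27.3 and 22.5 CPM in Gdf11 cells. Fgf8, which keeps progenitors undifferentiated, had 46 and 43.2 CPM on day 3, 22.5 and 24.6 CPM on day 7 and 19.1 and 21.5 CPM in Gdf11 cells. All 3 genes were lower in Gdf11 cells than in every day 3 library, and their difference from day 7 was not called. Their log2 differences from day 3 were -1.02 ± 0.16, -1.55 ± 0.13 and -1.14 ± 0.16, with adjusted p = 1.16e-05, 2.18e-11 and 8.02e-07. Fgf4 had the log2 difference -1.35 ± 0.23 (adjusted p = 2.51e-05). Wnt5b, a noncanonical Wnt ligand, was lower, at -0.6 in its summed value. Wnt3a, the tail bud ligand, was one of the 3 higher genes, at 34.7 and 34.5 CPM on day 3 and 45.7 and 43.2 CPM in Gdf11 cells. Greb1 was the only day 3-like member.

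The direction at T depended on which regions were counted. The regions nearest to T (chromosome 17, 8434423 to 8442496) do not include its promoter region, which lies inside an overlapping gene model. Their sum was 18.5 and 17.3 CPM on day 3, 37.4 and 41.4 CPM on day 7 and 25.6 and 29.1 CPM in Gdf11 cells, a log2 difference from day 3 of 0.6 ± 0.16 (adjusted p = 0.00469). The promoter region fell by 1.83 on the log2 scale (adjusted p = 5.3e-07). With the promoter region added, T had 32.7 and 34.6 CPM on day 3, 42.2 and 45.4 CPM on day 7 and 29.5 and 34.0 CPM in Gdf11 cells. This sum differed from day 3 by -0.09 ± 0.14 (adjusted p = 0.702), and the day 3 and Gdf11 libraries overlapped. A distal region 38109 bp from the gene (chromosome 17, 8480605 to 8481039) had 2.55 and 1.44 CPM on day 3, 16.0 and 20.0 CPM on day 7 and 4.64 and 7.97 CPM in Gdf11 cells. This region rose between the days and was intermediate in Gdf11 cells. With a window of 10 kb in place of 50 kb the summed difference of T was -0.4, and its class held in 1 of the 4 other scalings.

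Of 19 Wnt target and feedback genes, 7 were lower and 3 higher in Gdf11 cells than on day 3, and 10 were lower than on day 7 (3 to 10 with the other scalings, 6 without the first and 3 without the second day 7 library, and 3 without the first Gdf11 library). T is again 1 of the 3 higher genes, and 1 gene was higher without the second Gdf11 library. Axin2, the feedback inhibitor of the pathway, had 191 and 224 CPM on day 3, 181 and 210 CPM on day 7 and 126 and 148 CPM in Gdf11 cells, a log2 difference from day 3 of -0.6 ± 0.09 (adjusted p = 7.05e-06). Sp5, a transcriptional target, had 129 and 136 CPM on day 3, 111 and 106 CPM on day 7 and 76.2 and 82.6 CPM in Gdf11 cells. In both genes the Gdf11 libraries were below all day 3 and day 7 libraries. Rnf43, which removes Wnt receptors from the membrane, was late-kept at -0.98, and Tcf7l1, a repressor among the Tcf factors, was late-kept and higher, at 137 and 141 CPM on day 3 and 227 and 225 CPM in Gdf11 cells. CHIR99021 was listed for all 3 groups.

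Of 19 Fgf pathway genes, 7 were lower and 2 higher in Gdf11 cells than on day 3 (5 to 7 and 1 to 2 with the other scalings). Beside the ligands Fgf4 and Fgf8, the effector Etv4 was lower, with 102 and 113 CPM on day 3, 82.9 and 96 CPM on day 7 and 60.5 and 68.3 CPM in Gdf11 cells, and the feedback inhibitor Spry4 was late-kept at -0.55. The receptor gene Fgfr2 was day 3-like, with 63.8 and 72.9 CPM on day 3, 110 and 126 CPM on day 7 and 70.5 and 76 CPM in Gdf11 cells. Spry1 was intermediate, at 65.1 and 68.4 CPM, 138 and 138 CPM and 93.3 and 93.9 CPM in the same order, although with the 10 kb window its log2 difference from day 3 was -0.11.

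Of 20 genes of pluripotent cells and the epiblast, 13 were lower and 0 higher in Gdf11 cells than on day 3 (11 to 13 and 0 to 1 with the other scalings), and 9 kept the late state. On day 7, 15 were lower, and 3 were higher and 1 lower in Gdf11 cells than on day 7, of which 0 were higher without the second day 7 or the first Gdf11 library and 1 without the second Gdf11 library. With 1 library left out in turn, 10 to 13 were lower. Zfp42, a marker of naive stem cells, had 71.9 and 83.3 CPM on day 3, 32.6 and 27.1 CPM on day 7 and 34 and 35 CPM in Gdf11 cells, a log2 difference from day 3 of -1.16 ± 0.12 (adjusted p = 6e-09). Dppa3 had 74.8 and 69.1 CPM on day 3, 41.7 and 43.2 CPM on day 7 and 39 and 34.2 CPM in Gdf11 cells. In both, the later groups overlapped or adjoined each other and lay below day 3. Pou5f1, the POU factor of pluripotent cells, had 29.6 and 30.7 CPM on day 3, 14 and 12.1 CPM on day 7 and 18.2 and 20.2 CPM in Gdf11 cells and was intermediate, and Prdm14 was day 3-like at 51.8 and 54 CPM, 29.9 and 26.7 CPM and 45.4 and 38.2 CPM. Sall4 was lower in Gdf11 cells than on both days, with a difference from day 3 of -0.55 ± 0.09.

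Genes of the pathway that Gdf11 acts through were near the background in number of calls. Of 16 ligand, coreceptor and receptor genes, 1 was higher and 3 lower in Gdf11 cells than on day 3. Of 18 transducers and inhibitors, 1 was higher and 5 lower, and of 16 target genes 2 were higher and 4 lower. Without the first Gdf11 library 1 of the ligand and receptor genes was lower, and without the second day 3 library 3 of the transducers and inhibitors were. The shares are to be read against 8.95% higher and 14.9% lower among all genes. Nodal, a ligand of the epiblast (chromosome 10, 61417972 to 61425338), had 48.1 and 43.3 CPM on day 3, 18 and 15.5 CPM on day 7 and 18.8 and 17.9 CPM in Gdf11 cells. Its antagonists Lefty1 and Lefty2 had 38.9 and 33.6 CPM and 65.2 and 55.6 CPM on day 3, 16.1 and 18.6 CPM and 18.4 and 20 CPM on day 7 and 20.4 and 17.3 CPM and 27 and 21.7 CPM in Gdf11 cells. All 3 genes stayed at low values in Gdf11 cells, with log2 differences from day 3 of -1.32 ± 0.14, -0.94 ± 0.15 and -1.31 ± 0.14, and their differences from day 7 were not called.

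Pmepa1, an inhibitor that sequesters receptor-activated Smads and is itself a known target of TGF-beta signals, was higher in Gdf11 cells than on both days. Its summed level (chromosome 2, 173224458 to 173276731) was 63.4 and 60.2 CPM on day 3, 83.9 and 77 CPM on day 7 and 129 and 137 CPM in Gdf11 cells, with log2 differences of 1.1 ± 0.1 from day 3 (adjusted p = 1.43e-10) and 0.72 ± 0.1 from day 7 (adjusted p = 1.99e-06). Inside the gene, the region at chromosome 2, 173253754 to 173254606, had 7.3 and 2.74 CPM on day 3, 17.2 and 12.8 CPM on day 7 and 38.4 and 46.2 CPM in Gdf11 cells. Smad3, the transducer, had 82.4 and 81.5 CPM on day 3, 152 and 160 CPM on day 7 and 97 and 96 CPM in Gdf11 cells, and Smad7, an inhibitory Smad, had 114 and 124 CPM, 117 and 136 CPM and 136 and 137 CPM, with no call between Gdf11 cells and either day for Smad7. Eomes, a mesendoderm target, was late-kept and lower at -0.59. At Gdf11 itself the summed level was 77.5 and 89.8 CPM on day 3, 77.3 and 71.7 CPM on day 7 and 49 and 67 CPM in Gdf11 cells.

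Of 19 BMP pathway genes, 4 were higher and 1 lower in Gdf11 cells than on day 3, against 8.95% and 14.9% of all genes. On untreated day 7, 8 were higher and 2 lower than on day 3, against 18.0% and 14.2% of all genes. In Gdf11 cells 0 were higher and 3 lower than on day 7, against 2.05% and 11.2% of all genes. The targets Id1 and Id2, inhibitors of basic helix-loop-helix factors, had 42 and 60.3 CPM and 110 and 119 CPM on day 3 and 80.6 and 90.7 CPM and 177 and 193 CPM in Gdf11 cells, and the antagonist Nog had 50 and 56.6 CPM on day 3 and 74.7 and 82.5 CPM in Gdf11 cells. These 3 were higher, at 0.76 ± 0.12, 0.7 ± 0.09 and 0.56 ± 0.11 on the log2 scale. The ligand Bmp4 was lower, at -0.53 ± 0.12 (adjusted p = 0.00131).

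Of 20 genes of presomitic and paraxial mesoderm, 1 was higher and 5 lower in Gdf11 cells than on day 3, and 5 were day 3-like, where 8.95%, 14.9% and 5.32% of all genes were. Without the first Gdf11 library 3 were lower, and the day 3-like genes were 3 without the first day 3 library and 2 without the second day 7 library. Dll1, the Notch ligand of the presomitic mesoderm and neural tube, had 96 and 99.7 CPM on day 3, 154 and 169 CPM on day 7 and 89.9 and 117 CPM in Gdf11 cells. Meox1, a somite factor, had 37 and 34.8 CPM on day 3, 66.6 and 70.3 CPM on day 7 and 32.4 and 26.6 CPM in Gdf11 cells. Both were day 3-like with all 4 other scalings, with each day 7 library above all others. Hes7, the oscillator of the segmentation clock, was lower than on both days, at 92.4 and 107 CPM on day 3, 86.6 and 92.8 CPM on day 7 and 57.7 and 56.2 CPM in Gdf11 cells. Tbx6, which commits progenitors to mesoderm, was near the limit of the counts, at 2.04 and 2.45 CPM on day 3 and 0.422 and 0.323 CPM in Gdf11 cells (adjusted p = 0.00898), and Msgn1 did not differ in a called way at 13.5 and 15.3 CPM and 14.2 and 17.2 CPM.

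Of 18 genes linked to the passage from trunk to tail, 3 were higher and 11 lower in Gdf11 cells than on day 3, with the same counts in all 4 other scalings, and 7 kept the late state and 0 were day 3-like. Lin28a, an RNA-binding protein that delays differentiation (chromosome 4, 134003330 to 134019196), had 117 and 122 CPM on day 3, 76.7 and 88.5 CPM on day 7 and 44.2 and 51 CPM in Gdf11 cells. The groups did not overlap and Gdf11 cells were the lowest, with log2 differences of -1.33 ± 0.11 from day 3 (adjusted p = 2.29e-11) and -0.79 ± 0.11 from day 7 (adjusted p = 4.35e-06). Inside Lin28a, the region at chromosome 4, 134011521 to 134012295, had 23.9 and 23.2 CPM on day 3, 3.33 and 3.83 CPM on day 7 and 3.29 and 3.66 CPM in Gdf11 cells. That region kept the late state, whereas the Lin28a promoter region had 21.1 and 30.9 CPM on day 3, 19.3 and 18.7 CPM on day 7 and 10.0 and 11.2 CPM in Gdf11 cells and differed from both. The class of the promoter region held in 1 of the 4 other scalings. Mnx1, a motor neuron and notochord factor, was late-kept and lower, at 66.5 and 71 CPM on day 3 and 32.6 and 35.8 CPM in Gdf11 cells. Nr6a1, an orphan nuclear receptor of the trunk, had 205 and 214 CPM on day 3, 301 and 327 CPM on day 7 and 256 and 260 CPM in Gdf11 cells. Nr6a1 was thus higher than on day 3 by 0.3 ± 0.08 (adjusted p = 0.00486) in its summed value. The promoter region of Nr6a1 went the other way, with 38.1 and 46.3 CPM on day 3, 31.6 and 27.5 CPM on day 7 and 22.8 and 27.9 CPM in Gdf11 cells, a log2 difference from day 3 of -0.73 (adjusted p = 0.00134). Isl1, a hindlimb and motor neuron factor, was late-kept and lower at -0.57.

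The fibroblast markers called higher included Col3a1, a fibrillar collagen, with 24.9 and 18.3 CPM on day 3, 32 and 31.5 CPM on day 7 and 44.5 and 50.5 CPM in Gdf11 cells, and S100a4 with 1.44 and 1.15 CPM on day 3 and 3.04 and 7.32 CPM in Gdf11 cells. Dcn, a matrix proteoglycan of fibroblasts, was lower, with 17.1 and 18.2 CPM on day 3 and 7.51 and 7.86 CPM in Gdf11 cells. Of 18 housekeeping genes, 2 were higher and 4 lower than on day 3 (2 and 2 to 3 with the other scalings), and with 1 library left out 0 (without the first Gdf11 library) to 4 were lower.

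**Figure D4:**
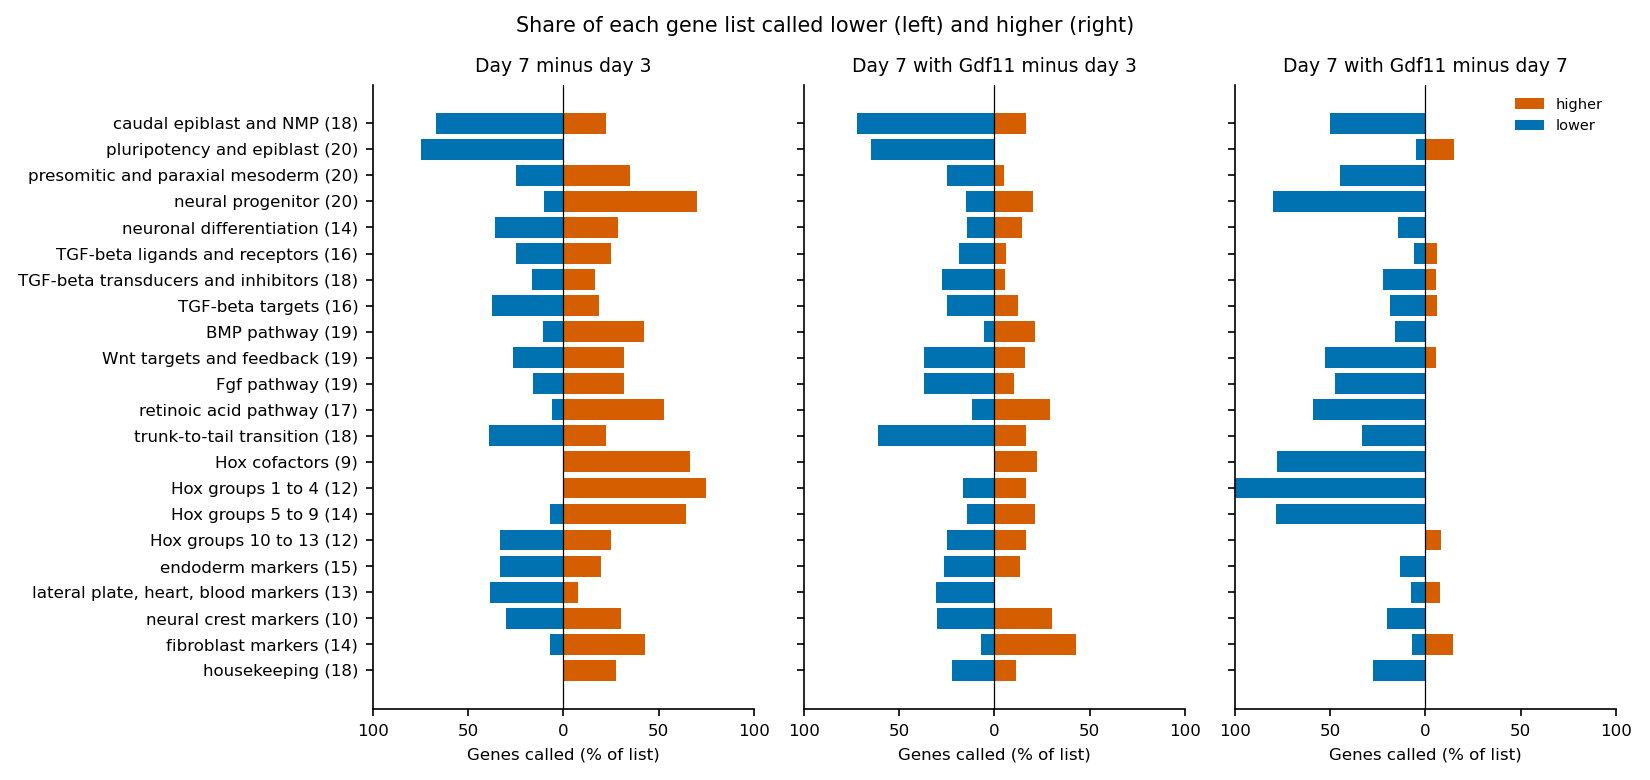
Share of the tested genes of each list called lower (left) and higher (right) in each of the 3 contrasts, in percent, with the number of tested genes in brackets. For the caudal epiblast list 13 of 18 genes are lower in Gdf11 cells than on day 3, and for neural progenitors 16 of 20 are lower in Gdf11 cells than on day 7.

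Outside the lists, the genes with the largest rise over day 3 that also had more than the median abundance were mostly late-kept. Slitrk6, a membrane protein of neurons (chromosome 14, 110747338 to 110755204), had 13.8 and 12 CPM on day 3, 68.6 and 66 CPM on day 7 and 49.5 and 65.1 CPM in Gdf11 cells, a log2 difference from day 3 of 2.14 ± 0.16 (adjusted p = 3.34e-12). Iftap, Gprc5d, Oacyl and Dnm3 followed the same pattern, with log2 differences between 1.43 and 2.06. With its promoter region added, which the sum of Iftap did not include, the difference of Iftap was 0.88. Gm815 and Fam181a were intermediate, at 1.61 and 1.47, although the difference of Gm815 was -0.22 with the 10 kb window. Both overlapped day 6. Gm815 had 103 and 94.9 CPM on day 6 and 92.9 and 114 CPM in Gdf11 cells. Fam181a had 53.6 and 48.6 CPM on day 6 and 52.2 and 50.9 CPM in Gdf11 cells. Sumf1, a sulfatase-activating enzyme, lay beyond day 7 with 17.8 and 20.5 CPM on day 3, 38.1 and 37 CPM on day 7 and 53.7 and 52.6 CPM in Gdf11 cells. The genes that fell most were St8sia3, Plcxd1, Esrp1, Sox14, Fah, Fbxo27, Cldn3, Niban3, Gm9631 and Lrrn4, between -1.42 and -1.25 on the log2 scale. Of these, Esrp1, a splicing regulator of epithelial cells, was intermediate with 73.4 and 93.7 CPM on day 3, 22.5 and 24 CPM on day 7 and 33.3 and 32.5 CPM in Gdf11 cells, and the other 9 kept the late state. Cldn3, a tight junction protein, had 53.9 and 47.6 CPM on day 3, 18.1 and 19.6 CPM on day 7 and 21.6 and 19.8 CPM in Gdf11 cells. Among day 3-like genes with the largest change between the days were Ifitm6 and Metrn, a neurotrophic factor, with 29.8 and 31.3 CPM on day 3, 68.7 and 71.1 CPM on day 7 and 31.8 and 32.7 CPM for Metrn.

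At the 967 day 3-like regions that were higher on day 7, both day 3 libraries had a peak at 90.3% and both Gdf11 libraries at 91.5%, so these were mostly regions already open on day 3. At the 3404 late-kept regions that were higher on day 7, no day 3 library had a peak at 44.0%, and both day 6 libraries had one at 84.4%. Before Gdf11 was added, on day 6, the late-kept regions had largely changed, with 88.8% of the higher and 90.2% of the lower ones past the midpoint between day 3 and day 7. For the day 3-like regions higher on day 7 this share was 55.2%, with medians of 0.6 on day 6, 1.11 on day 7 and 0.06 in Gdf11 cells on the log2 scale relative to day 3. At genes the shares were 39.5% for the day 3-like (344 of 871) and 83.7% for the late-kept higher genes. The day 3 and day 7 values defined the classes and also set the midpoint, so these shares are not independent of the class rules. The day 6 libraries were not used by the classes except through the shared estimate of spread.

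The region inside Astn2 at chromosome 4, 65896410 to 65896760, an example of the late-kept class, had 0 and 0.144 CPM on day 3, 7.11 and 10.2 CPM on day 7 and 8.69 and 10.1 CPM in Gdf11 cells. The region inside Ank2 at chromosome 3, 126968819 to 126969052 was day 3-like, with 3.74 and 3.18 CPM on day 3, 0.72 and 0.295 CPM on day 7 and 4.05 and 2.58 CPM in Gdf11 cells. At Ank2 every day 3 and Gdf11 library was above both day 7 libraries. A region inside Cwc27 (chromosome 13, 104751032 to 104751471) had 0 counts in both day 3 libraries and 49 and 60 in the Gdf11 libraries. It was among the regions with the largest rise, and no fold is given because the day 3 count was 0. The region 10924 bp from Slco6d1 (chromosome 1, 98527909 to 98528304) was among those that fell most, with 78 and 26 counts on day 3 and 2 and 0 in Gdf11 cells.

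A further group of 859 regions was higher in Gdf11 cells than on both days, and 481 regions were lower than on both. Of the 859, no library of the group had a peak at 85.0% for day 2, 80.1% for day 3, 67.2% for day 6 and 70.7% for day 7, while both Gdf11 libraries had one at 94.5%. With the other scalings the 2 counts were 648 to 1129 and 196 to 418, and in a fit limited to the groups compared they were 2175 and 490. Leaving out 1 library in turn gave 194 to 744 and 141 to 407. The region inside Ednra, the endothelin receptor gene (chromosome 8, 77711740 to 77712086), had 0.255 and 0.577 CPM on day 3, 1.08 and 1.62 CPM on day 7 and 9.28 and 10.7 CPM in Gdf11 cells, a log2 difference from day 3 of 4.66 ± 0.55 (adjusted p = 1.91e-09). At genes the direction of this class flips with the scaling, since 77 were higher and 404 lower than on both days with TMM factors and 78 and 325 with DESeq2's size factors, but 209 and 92 with library size alone, 189 and 120 with loess offsets and 273 and 70 with TMM factors from the regions with a peak in all libraries.

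A set of late regions that used no library of day 3, day 7 or Gdf11 cells was taken from day 6 against day 2. Of 34781 regions that gained accessibility by day 6 (20.1% of those tested), 34.3% (11941) were higher in Gdf11 cells than on day 3, against 10.5% of all regions, with a median log2 difference of 0.854, and 43.7% were higher on day 7 than on day 3, with a median of 1.11. Of the same regions, 9.78% were lower in Gdf11 cells than on day 7. Of 21588 regions that lost accessibility (12.5%), 28.7% (6206) were lower in Gdf11 cells than on day 3, with a median of -0.688, against 37.1% and -0.896 on day 7. At these, 0.982% were higher and 0.987% lower in Gdf11 cells than on day 7.

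The authors' peak calls, made for each library, are a second measure from the same libraries. A peak was present in both day 3 and both Gdf11 libraries but neither day 7 library at 1082 regions, and in both day 7 and both Gdf11 libraries but neither day 3 library at 6336. Of the 1082, 666 had a peak in a day 6 library, and in the counts 158 were higher in Gdf11 cells than on day 7 and 31 were day 3-like. Against day 3, 119 of the 1082 were lower and 10 higher in Gdf11 cells, with a median log2 difference of -0.265. Of the 6336, 5172 were called higher than on day 3 in the counts and 1343 kept the late state. The 2 sets compare libraries of unequal depth and peak number.

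Regions at promoters were more often lower, and distal regions more often higher, in Gdf11 cells than on day 3. Of 12108 tested regions at promoters, 2.68% were higher and 9.44% lower in Gdf11 cells than on day 3, against 14.9% and 7.99% of 36125 regions beyond 50 kb of a gene and 10.9% and 6.45% of 79265 regions inside genes. Promoter regions also had more counts, with a median log2 CPM of 4.12 against 0.79 beyond 50 kb, so these shares are not at matched depth. Of the 968 promoter regions lower on day 7 than on day 3, 45.7% kept the late state, against 15.1% to 19.5% at the other locations. Fewer of these promoter regions were undecided, 53.3% against 78.7% to 83.3%, and the late-kept shares are not adjusted for this. Of the 1132 promoter regions higher on day 7, 17.1% kept the late state, 6.71% were day 3-like and 1.59% intermediate. Single genes held regions of both kinds. At least 1 day 3-like region was found at 744 genes and at least 1 late-kept region at 3776, and 327 genes had both.

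**Figure D5:**
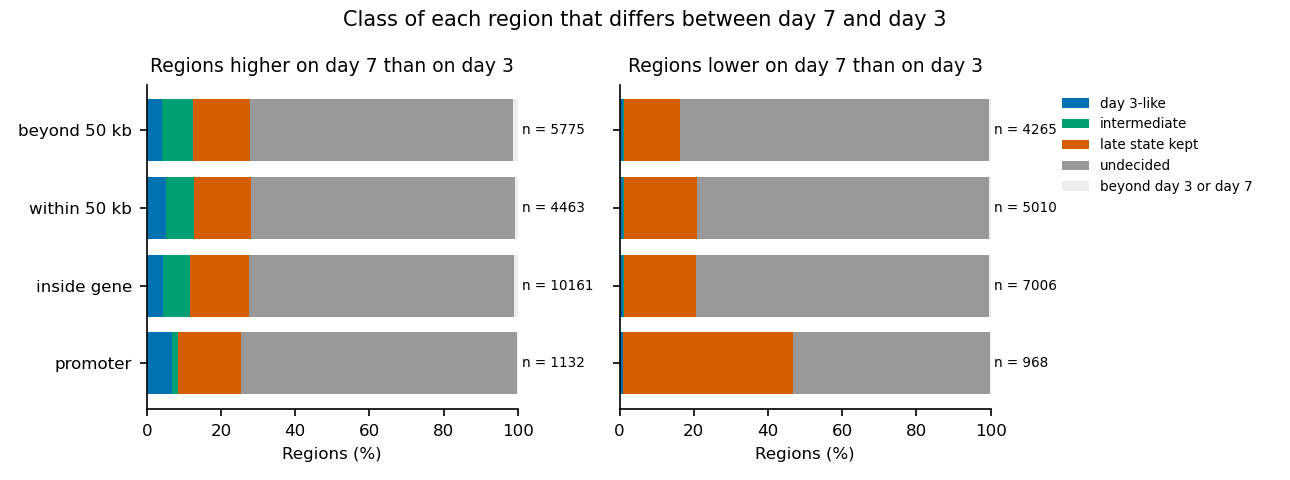
Share of regions in each class, in percent, among the regions higher (left) and lower (right) on day 7 than on day 3, by location, with the number of regions beside each bar. Among promoter regions lower on day 7, 45.7% of 968 kept the late state, the highest share of the 4 locations. Fewer of them were undecided, 53.3% against 78.7% to 83.3% elsewhere.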

How the data were processed

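ATAC-seq was analysed in 10 libraries of 5 groups of 2, and the comparison of Gdf11 cells with day 3 uses 4 of them. Per the submitters' processing notes, MACS2 2.1.1.20160309, HOMER 4.10, bedtools, HISAT2 2.1.0 and SAMtools were used with build mm10; their order and settings, including any shift of reads for the Tn5 cut, are not given in the sources used here. The authors deposited raw read counts for 246799 numbered regions of each library, without coordinates. The authors also deposited a peak list for each library, called per library, whose −log10 q values are those of the peak caller per the format. Merging the 10 peak lists, in the character order of the chromosomes, gave the same number of regions, and coordinates were given to the counts by this order. In each of the 10 libraries, 0 regions with a peak of that library had a count of 0. A peak counts as present in a region where it overlaps the region.

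Regions and genes with low counts were removed with edgeR's filterByExpr by group (73624 regions and 527 genes). One model of all 10 libraries was fitted with edgeR 4.0.16 in R 4.3.3 (TMM factors, glmQLFit and glmQLFTest, two-sided), so all groups share 1 estimate of spread, and p-values were adjusted by Benjamini-Hochberg over all features of a comparison at 0.05. The standard error is the log2 difference divided by the square root of F, and 95% intervals use the t distribution. A region was given to the protein-coding gene of RefSeq (GRCm38.p6) nearest within 50 kb, and the counts of a gene's regions were summed; a promoter region inside another gene went to that gene. CPM uses library size times the TMM factor. The classes were defined with a margin of 1 log2 unit. The scripts were tested on simulated counts.

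Alternatives were DESeq2 1.42.0, other scalings, no filter, a 10 kb gene window, promoter regions counted with their own gene, a class margin of 1.5-fold, a replicate block and leaving out each library. Gene lists, classes and the comparison itself were chosen with earlier results of these data known. Named genes are, for each list and direction, up to 4 with the smallest p, any Hox gene, members with values that did not pass, and outside the lists the 10 genes per direction with the largest change above median abundance whose libraries do not overlap, the 5 with the largest change for each class, and a few regions chosen by the same kind of rule. The labels give no batch or date. Intervals cover the spread between these libraries only.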

Additional observations from a re-analysis of the deposited data

How the results depend on the processing

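Without the low-count filter, in a fit limited to the groups compared, without mitochondrial regions and with the replicate block, the counts of higher, lower, day 3-like and late-kept regions and genes, and of gained and lost regions, stayed within 1.5 times their values, but some smaller classes did not. Among them, the limited fit gave 2175 regions higher than on both days, and the replicate block 689 genes lower than on both days. With DESeq2 the lower regions were 7353, the day 3-like regions 704, the late-kept regions 3804 and the lower regions among those lost by day 6 3715. An interval within 1.5-fold, which admits fewer features by construction, left 327 day 3-like and 1108 late-kept regions. Day 3-like genes numbered 599 with library size alone, 604 with loess offsets and 646 with TMM factors from the regions with a peak in all libraries, a scaling added after seeing the data, with which 2753 genes were higher; the cause was not tested. Leaving out 1 library gave 11340 (without Gdf11 replicate 2) to 13082 higher and 7013 (without Gdf11 replicate 2) to 8383 lower regions, 324 (without Gdf11 replicate 1) to 913 day 3-like and 2659 (without day 7 replicate 1) to 5362 late-kept regions, 8299 to 9156 gained and 3665 to 4469 lost regions, 1004 (without Gdf11 replicate 2) to 1536 higher and 1835 (without Gdf11 replicate 1) to 2442 lower genes, 212 (without day 7 replicate 2) to 1046 day 3-like and 1606 to 2097 late-kept genes. For the higher, lower, gained and lost counts, the library left out was of day 3 or Gdf11 cells. For the 2 classes it was of day 3, day 7 or Gdf11 cells. The lone library left in a group was assumed to vary like the others, and fewer libraries give wider intervals. Of 5400 comparisons of 360 named genes, 5117 kept direction and call, 192 lost and 83 gained the call, and 8 reversed, of which 1 was T at -0.09 when promoter regions were counted with their own gene, an alternative added after seeing the data. The other 7 were with the 10 kb window, where the log2 differences were -0.67 (A430057M04Rik), -0.01 (Alox5ap), -0.41 (Crabp1), -0.22 (Gm815), 0.13 (Ripply2), -0.11 (Spry1) and -0.4 (T). With the replicate number as a block there were 18412 higher and 13476 lower regions and 2135 higher and 3469 lower genes. The deviations of same-numbered libraries of day 3 and Gdf11 cells had a correlation of 0.043. This value covers all tested regions, many with few counts, so it cannot decide whether the numbers pair the samples. In both groups the second library had fewer counts and a larger mitochondrial share. That share was 10.135% and 13.346% on day 3 and 9.617% and 10.959% in Gdf11 cells. Of the regions that changed between day 3 and day 7, most stayed undecided, and the part of depth in this was not tested.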

Other observations

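Among the 46 windows of promoters that were intermediate and higher on day 7, 9 (19.6%) held ACAATGG, against 1.83% of the 16329 windows with a tested region. The 9 windows belonged to 6 genes. The 46 windows also held more TGATTNAT (10.9% against 1.26%), TTTATGG (6.52% against 1.5%) and AGGTCA (23.9% against 10.3%). CTTTGAT was not more frequent (2.17% against 2.36%). Their share of G and C was 50.9%, against 60.6%, so the base composition was not matched. Among the 621 windows of promoters that were late-kept and lower on day 7, 24 (3.86%) held ATGCAAAT, against 1.46%. Windows of 1 gene can overlap and share their letters, no test was made, and the motifs were chosen with the results known.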
